A study of Homo sapiens with 8 samples.

Results

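The 4 capture baits of the β-globin locus were compared with each other in WT HUDEP-2 cells: the adult gene HBB, the fetal genes HBG (HBG1 and HBG2), the region upstream of HBD called HBD-3.5kb, and the locus control region (LCR). The data were 1 merged WT list of pairs, from 1 of 8 samples and 1 of 2 deposited lists, made by CAPTURE-3C-seq, in which DNA held by a biotinylated dCas9 and guide RNAs is purified and its ligation partners are sequenced. A pair is a listed contact between 2 ends of 42 bp, and pairs were given to a bait when each pair of a sorted list had an end in it. This gave 3189 distinct pairs summed over the 4 lists, of which 171 belonged to HBB, 86 to HBG, 1782 to HBD-3.5kb and 1150 to the LCR, and 2966 distinct pairs when a pair in several lists was counted once.

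HUDEP-2 is an immortalised human erythroid progenitor line with an adult-like globin pattern. The WT cells carried no BCL11A knockout and co-expressed the tagged dCas9 and multiplexed guide RNAs. The sample labels describe culture in expansion medium with doxycycline, dexamethasone, SCF and EPO, while the study's methods describe differentiation before collection. A list of DNA pairs has no marker genes, so the cell type could not be checked against them. The list merges 3 biological replicates and gives no read number per pair. The errors here are therefore counting errors of 1 library, listed pairs need not be independent molecules, and the spread between replicates is unknown.

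In erythroid cells the LCR acts as a distant enhancer of the β-like globin genes, which are switched during development from embryonic HBE1 through the fetal HBG genes to adult HBB. Its hypersensitive sites, HS1 to HS5, are short stretches of open chromatin bound by erythroid factors and, at HS5, by CTCF. 3'HS1, on the other side of the genes, is also bound by CTCF and is known as a partner of HS5 in the folding of the locus. HBBP1 is a β-globin pseudogene and BGLT3 a noncoding RNA gene, both standing between the adult and the fetal genes.

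The baits lie on chromosome 11 of hg19 and all globin genes are on the minus strand, so that the LCR is upstream of them at higher coordinates. The HBB bait spans chr11:5246501-5250201 (3.7 kb), HBD-3.5kb spans chr11:5255713-5261213 (5.5 kb), HBG spans chr11:5270187-5281587 (11.4 kb) and the LCR spans chr11:5295475-5313775 (18.3 kb). The bait edges and the windows of the hypersensitive sites both go back to a reading by eye of a map of the locus, so they are approximate, and the counts of pairs leaving a bait rest on these edges. The most used end inside the HBB, HBG and LCR baits is printed from the hg19 plus strand, since it anchors more pairs than any other end of its bait. The most used end outside the HBD-3.5kb bait is added because it resembles that of HBB. Capitals mark GATC, which stands at an edge of each of them.
HBB bait, chr11:5247821-5247862, HBB coding exon: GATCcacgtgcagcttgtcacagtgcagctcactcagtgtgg
HBG bait, chr11:5275498-5275539, edge of an HBG2 exon: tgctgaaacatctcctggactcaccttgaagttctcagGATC
LCR bait, chr11:5305798-5305839, in HS3: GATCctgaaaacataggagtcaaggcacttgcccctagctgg
HBD-3.5kb outside end, chr11:5255235-5255276, HBD coding exon: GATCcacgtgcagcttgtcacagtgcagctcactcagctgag

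The HS3 end anchored 62 of the 872 pairs that left the LCR (7.11%). The HBB end anchored 15 of 171 (8.77%) and the HBG2 end 6 of 60 (10.0%). Between 94.2% and 97.1% of the ends outside a bait were used by 1 pair. Several ends can lie on 1 fragment, as the HBB bait held 126 ends of leaving pairs and 9 GATC. These shares therefore do not count fragments. The HBB and HBD exon ends were identical at 38 of 42 positions and over the first 37, so these paralogous stretches differ only near their last bases. Stretches of 42 bases that occur again on chromosome 11 made up 17.6% of the HBG bait, where HBG1 and HBG2 are near copies, and between 1.27% and 1.74% of the other baits. The authors kept reads that align to a single place, so an end in such a stretch could hardly be listed, and 0 were.

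HBB differed from HBG in how many of its pairs left the bait, and HBD-3.5kb from the LCR. All 171 HBB pairs had their other end outside the bait (100%, Wilson 95% interval 97.8 to 100), against 60 of 86 HBG pairs (69.8%, 59.4 to 78.5; adjusted p = 2.37e-14, two-sided Fisher's exact test). Of the HBD-3.5kb pairs 947 of 1782 left the bait (53.1%, 50.8 to 55.5), against 872 of 1150 LCR pairs (75.8%, 73.3 to 78.2; adjusted p = 1.26e-35, two-sided Fisher's exact test). The short pairs were unevenly spread over the lists: 720 HBD-3.5kb pairs and 15 LCR pairs had ends under 1 kb apart, and no HBB or HBG pair (0) did. The shortest pairs were 63 bp in the HBD-3.5kb list, 156 bp in the LCR list, 2656 bp in the HBG list and 3520 bp in the HBB list, the last close to the length of the bait. Among pairs at least 1 kb long the order of the HBD-3.5kb and LCR baits turned, with 88.4% and 76.8% leaving. Among those at least 5 kb long the shares were 100% for HBB and 98.4% for HBG (adjusted p = 0.276, two-sided Fisher's exact test). This comparison cannot decide, since no pair of that length fits inside the HBB bait of 3.7 kb. The baits compared also differ in length, 3.7 against 11.4 kb and 5.5 against 18.3 kb. A longer bait can hold longer pairs inside it, and the part of bait length in the shares was not tested. Shares are given over the leaving pairs from here on. A count of 0 allows up to 3 pairs, which is 1.75% of the HBB pairs, 5% of the HBG pairs (a floor, not the Wilson limit), 0.317% of the HBD-3.5kb pairs and 0.344% of the LCR pairs.

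**Figure D1:**
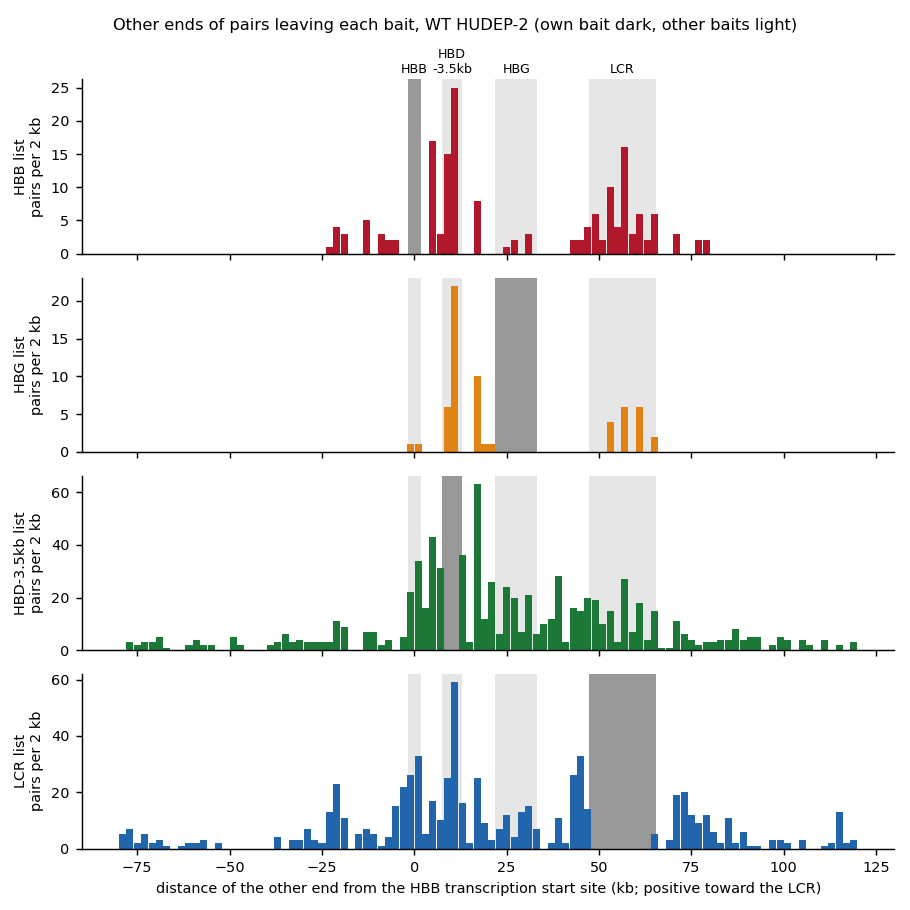
Number of other ends of leaving pairs per 2 kb (vertical axes, own scale in each panel) against their distance in kb from the HBB transcription start site, for the 4 lists. Dark bands mark the panel's own bait and light bands the other baits. The panels hold 164 of 171 HBB, 60 of 60 HBG, 788 of 947 HBD-3.5kb and 680 of 872 LCR pairs, and HBG has no end beyond the LCR or downstream of HBB.

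The shares of pairs that the adult gene HBB and the fetal genes HBG gave to the LCR did not differ beyond counting error. The share was 55 of 171 for HBB (32.2%, 25.6 to 39.5) and 18 of 60 for HBG (30.0%, 19.9 to 42.5; adjusted p = 0.872, two-sided Fisher's exact test). This p does not show that the shares were equal, as the HBG interval is wide. When the pairs of any list with an end in the bait were counted, which adds only pairs between baits, the order turned, with 32.8% for HBB and 36.2% for HBG. With all pairs as denominator the gap was wider, 32.2% against 20.9% (adjusted p = 0.100, two-sided Fisher's exact test).

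The targets nearer to the genes separated HBB from HBG. Of 9 segments outside both baits 4 passed the test (44.4%), 2 higher in each bait. HBD-3.5kb took 40 of 171 HBB pairs (23.4%, 17.7 to 30.3) and 28 of 60 HBG pairs (46.7%, 34.6 to 59.1; adjusted p = 0.00292, two-sided Fisher's exact test). The segment of HBBP1 and BGLT3 took 8 HBB pairs (4.68%) and 12 HBG pairs (20.0%; adjusted p = 0.00283, two-sided Fisher's exact test). Both were higher from HBG, which lies beside the HBBP1 and BGLT3 segment. The segment with the HBD gene, chr11:5250202-5255712, took 20 HBB pairs (11.7%) and 0 HBG pairs (adjusted p = 0.00580, two-sided Fisher's exact test), and the sequence downstream of HBB took 15 (8.77%) and 0 (adjusted p = 0.0269, two-sided Fisher's exact test). Both of these lie beside HBB, and the distance from each bait was not taken out of the comparison. With all pairs as denominator the HBD-3.5kb difference no longer passed (23.4% against 32.6%, adjusted p = 0.161, two-sided Fisher's exact test). The HBBP1 and BGLT3 difference no longer passed with pairs of any list (4.04% against 7.50%, adjusted p = 0.221, two-sided Fisher's exact test). The call of the HBD segment was lost among pairs at least 5 kb long (adjusted p = 0.177), the one downstream of HBB at the highest BF score (adjusted p = 0.133), and both over pairs of 500-bp bins (adjusted p = 0.127 and 0.0690, all by the two-sided Fisher's exact test).

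The remaining segments held few pairs of either gene. The segment with the embryonic gene HBE1, chr11:5281588-5295474, took 8 HBB pairs (4.68%) and 0 HBG pairs (adjusted p = 0.174, two-sided Fisher's exact test). The sequence beyond 3'HS1 took 4 HBB pairs (2.34%) and 0 HBG pairs (adjusted p = 0.647, two-sided Fisher's exact test). 3'HS1 took 5 HBB pairs (2.92%) and 0 HBG pairs (adjusted p = 0.425, two-sided Fisher's exact test). The sequence beyond HS5 took 10 HBB pairs (5.85%) and 0 HBG pairs (adjusted p = 0.121, two-sided Fisher's exact test). The Wilson interval of 0 among 60 HBG pairs reaches 6.02%. With pairs of any list, which gives 160 HBG pairs by adding only pairs between baits, 2 of these segments passed. They were HBE1 (4.04% against 0, adjusted p = 0.0174) and beyond HS5 (5.05% against 0, adjusted p = 0.00537, both by the two-sided Fisher's exact test).

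A segment is wider than the genes in it. The body of BGLT3 held 7 HBB pairs (4.09%) and 9 HBG pairs (15%), while HBBP1 held 1 of each. That of HBD held 7 of the 20 HBB pairs of its segment (4.09% of the leaving pairs), and those of HBG2 and HBE1 held 1 each (0.585%). The most used bin outside the bait was chr11:5258001-5260000 in both lists, with 25 HBB pairs (14.6%) and 24 HBG pairs (40%), and it holds the -3.5 kb site and most of the window of the site at 2.5 kb. HBB next used chr11:5256001-5258000 with 15 pairs (8.77%) and chr11:5252001-5254000 with 13 (7.60%). HBG next used chr11:5264001-5266000 with 9 (15%) and, with 6 each (10.0%), chr11:5304001-5306000 over HS3 and chr11:5308001-5310000 over HS4. Of 13 bins tested 2 passed (15.4%), both higher from HBG: chr11:5258001-5260000 (adjusted p = 0.00112, two-sided Fisher's exact test) and chr11:5264001-5266000, with 6 HBB pairs (3.51%) against 9 (adjusted p = 0.0271, two-sided Fisher's exact test). With all pairs as denominator 0 bins passed, and at the highest BF score 1 did.

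**Figure D2:**
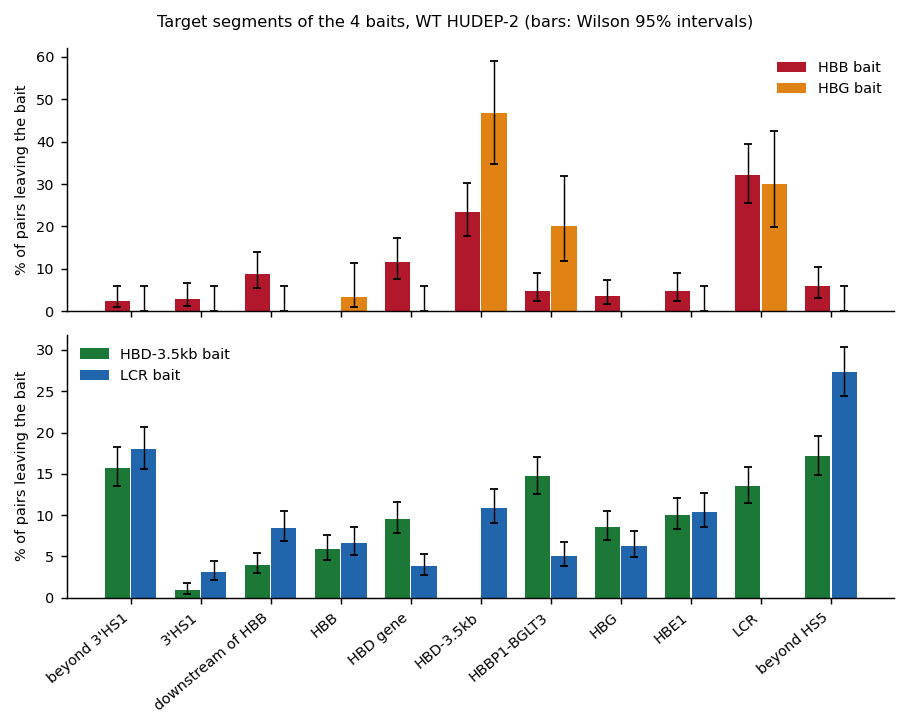
Share of leaving pairs (vertical axes, %) that ended in each of 11 segments of the locus and its flanks, from the 3'HS1 side on the left to the HS5 side on the right, for HBB and HBG (top) and HBD-3.5kb and LCR (bottom). Bars carry Wilson 95% intervals and a bait has no bar in its own segment. HBB and HBG stand close over the LCR (32.2% and 30.0%) and apart over HBD-3.5kb (23.4% and 46.7%).

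The HBD-3.5kb region and the LCR did not differ beyond counting error in the shares of their pairs that ended in the whole HBB and HBG baits and in the HBE1 segment. HBB took 56 of 947 HBD-3.5kb pairs (5.91%, 4.58 to 7.60) and 58 of 872 LCR pairs (6.65%, 5.18 to 8.50; adjusted p = 0.647, two-sided Fisher's exact test). HBG took 81 HBD-3.5kb pairs (8.55%, 6.94 to 10.5) and 55 LCR pairs (6.31%, 4.88 to 8.12; adjusted p = 0.122, two-sided Fisher's exact test). The HBE1 segment took 95 (10.0%) and 91 (10.4%; adjusted p = 0.864, two-sided Fisher's exact test), and the HBE1 gene itself 10 (1.06%) and 9 (1.03%). None of these segments passed the test here. With all pairs as denominator, the HBB bait (3.14% against 5.04%, adjusted p = 0.0195) and the HBE1 segment (5.33% against 7.91%, adjusted p = 0.0129, both by the two-sided Fisher's exact test) were higher from the LCR.

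Of all 9 segments outside both baits 5 passed (55.6%), 2 higher from HBD-3.5kb and 3 from the LCR. The segment of HBBP1 and BGLT3 took 139 HBD-3.5kb pairs (14.7%) and 44 LCR pairs (5.05%; adjusted p = 8.68e-11, two-sided Fisher's exact test), and the segment with the HBD gene took 90 (9.50%) and 33 (3.78%; adjusted p = 5.35e-06, two-sided Fisher's exact test). The HBD gene itself held 36 (3.8%) and 14 (1.61%). Both segments flank the HBD-3.5kb bait. The LCR was higher beyond HS5, its own flank, with 238 pairs (27.3%) against 162 (17.1%; adjusted p = 1.55e-06, two-sided Fisher's exact test). Away from both baits the LCR was higher downstream of HBB, with 74 pairs (8.49%) against 38 (4.01%; adjusted p = 0.000370, two-sided Fisher's exact test), and at 3'HS1, with 27 (3.10%) against 9 (0.95%; adjusted p = 0.00292, two-sided Fisher's exact test). Beyond 3'HS1 the shares were 18% for the LCR and 15.7% for HBD-3.5kb (adjusted p = 0.290, two-sided Fisher's exact test), and with all pairs as denominator they were 13.7% and 8.36% (adjusted p = 4.61e-05, two-sided Fisher's exact test). Over pairs of 500-bp bins the calls at 3'HS1, downstream of HBB and in the HBD segment were lost (adjusted p = 0.127, 0.110 and 0.224), and among pairs at least 5 kb long that in the HBD segment (adjusted p = 0.0718, all by the two-sided Fisher's exact test).

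The LCR's most used bin was chr11:5258001-5260000 in the HBD-3.5kb region, with 58 pairs (6.65%), followed by chr11:5248001-5250000 at HBB with 38 (4.36%) and chr11:5292001-5294000 with 33 (3.78%). HBD-3.5kb used chr11:5264001-5266000 most, with 47 pairs (4.96%), then chr11:5252001-5254000 with 44 (4.65%) and chr11:5248001-5250000 with 34 (3.59%). The HBB bin was thus among the leading 3 of both lists. The gene body of BGLT3 held 46 HBD-3.5kb pairs (4.86%) and 13 LCR pairs (1.49%). That of HBG2 held 19 (2.01%) and 4 (0.459%), and that of HBB 22 (2.32%) and 26 (2.98%).

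Of 75 bins tested 9 passed (12%), 4 higher from HBD-3.5kb and 5 from the LCR. The bins higher from HBD-3.5kb included chr11:5268001-5270000, which holds part of HBG1, with 25 pairs (2.64%) against 3 (0.344%, at the floor; adjusted p = 0.00259, two-sided Fisher's exact test). Also higher from HBD-3.5kb was chr11:5252001-5254000, with 44 (4.65%) against 14 (1.61%; adjusted p = 0.00612, two-sided Fisher's exact test). In chr11:5264001-5266000 the counts were 47 (4.96%) and 19 (2.18%; adjusted p = 0.0216, two-sided Fisher's exact test). The remaining one, chr11:5274001-5276000 at HBG2 inside the HBG bait, held 23 (2.43%) and 5 (0.573%; adjusted p = 0.0216, two-sided Fisher's exact test). All of these were lost over pairs of 500-bp bins, where 0 bins passed. The bins higher from the LCR included chr11:5244001-5246000, downstream of HBB, with 20 pairs (2.29%) against 3 (0.317%, at the floor; adjusted p = 0.00612, two-sided Fisher's exact test). In chr11:5320001-5322000, beyond HS5, the LCR had 23 (2.64%) and HBD-3.5kb 7 (0.739%; adjusted p = 0.0216, two-sided Fisher's exact test). In chr11:5242001-5244000 the LCR had 15 (1.72%) against 3 (0.317%, at the floor; adjusted p = 0.0348, two-sided Fisher's exact test).

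HS3 was the most used hypersensitive site of the HBB and HBD-3.5kb lists. In the short HBG list HS4 held 6 pairs and HS3 5, an order that turned over pairs of 500-bp bins (4 and 5) and with pairs of any list (15 and 23). Of the 55 HBB pairs that ended in the LCR, 51 (92.7%, 82.7 to 97.1) lay in one of the 5 windows of 2 kb, which cover 54.6% of the LCR. The guides of the LCR bait were directed at these sites and 48 of the 55 pairs are also in its list, so contact and capture cannot be told apart. The counts from HS1 to HS5 were 6, 12, 19, 8 and 6, so that HS3 held 34.5% (23.4 to 47.7). Of the 18 HBG pairs 16 lay in a window (88.9%, 67.2 to 96.9), with 0, 4, 5, 6 and 1 from HS1 to HS5. Of the 128 HBD-3.5kb pairs 91 did (71.1%, 62.7 to 78.2), with 19, 17, 25, 18 and 12. The HBD-3.5kb pairs were the most even over the sites, from 9.38% at HS5 to 19.5% at HS3.

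No difference in the use of a single site passed among 15 tests over the 3 baits (0%), and 1 reached an unadjusted p under 0.05 by the two-sided Fisher's exact test. That one was HS3 in HBB against HBD-3.5kb, 34.5% against 19.5% (adjusted p = 0.472, two-sided Fisher's exact test). With the leaving pairs as denominator 3 passed: HS2 (adjusted p = 0.00407) and HS3 (adjusted p = 8.12e-05) in HBB against HBD-3.5kb, and HS4 in HBG against HBD-3.5kb (adjusted p = 0.0101, all by the two-sided Fisher's exact test). That denominator also counts how much of each list went to the LCR at all. HS4 took 33.3% of the HBG pairs (16.3 to 56.3) and 14.5% of the HBB pairs (7.56 to 26.2; adjusted p = 0.472, two-sided Fisher's exact test).

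The LCR list gave the use of these sites from the other side, but partly over the same pairs. Also in the lists of the other baits were 48 of its 58 pairs to HBB, 93 of its 95 to HBD-3.5kb and 15 of its 55 to HBG. It is therefore no separate support. Of its 872 leaving pairs 855 (98.1%) started in a window, 390 in HS3 (44.7%, 41.5 to 48.0), 250 in HS4 (28.7%), 101 in HS2 (11.6%), 87 in HS1 (9.98%) and 27 in HS5 (3.10%). The guides of this bait were directed at the hypersensitive sites, so the use of a site and its capture cannot be told apart in these shares. Among the pairs to HBB, 58 in all, 8, 12, 22, 11 and 5 started at HS1 to HS5. Among the 55 pairs to HBG the counts were 10, 7, 23, 15 and 0. Among the 95 pairs to HBD-3.5kb they were 19, 17, 25, 18 and 9. HS3 held the most pairs to each of these targets. HS1 to HBG was 0 of 18 in the HBG list and 10 of 55 in the LCR list, and HS5 to HBG was 1 and 0.

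The starting sites are given next for 3 more targets of the LCR list. HS1 anchored 21 of 91 pairs to the HBE1 segment (23.1%, 15.6 to 32.7) and 13 of 238 beyond HS5 (5.46%, 3.22 to 9.12). HS4 anchored 15 of 91 (16.5%) and 95 of 238 (39.9%). Of the 157 pairs beyond 3'HS1, 89 started at HS3 (56.7%), 46 at HS4 (29.3%), 18 at HS2 (11.5%), 2 at HS1 (1.27%) and 0 at HS5. These values are descriptions without a test.

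**Figure D3:**
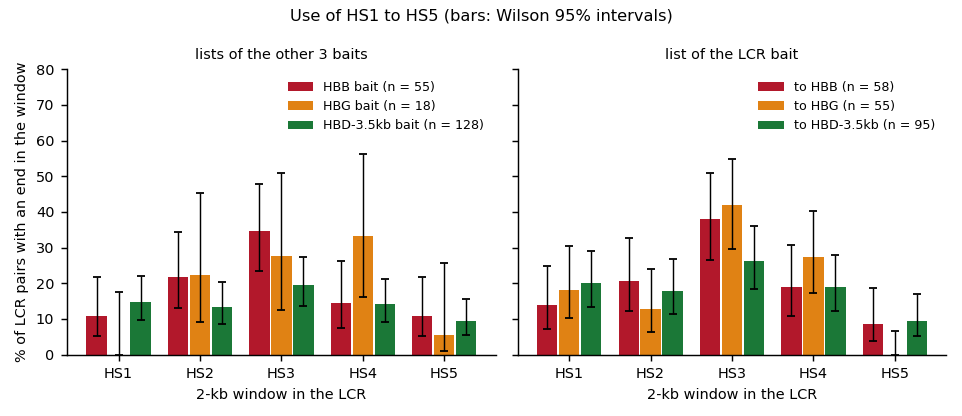
Share (vertical axis, %) of pairs joining the LCR to HBB, HBG or HBD-3.5kb that had an end in each of the 5 hypersensitive site windows of 2 kb. The left panel counts them in the lists of those baits and the right panel in the LCR list, with Wilson 95% intervals and n in the key. HS3 holds 34.5% of the HBB pairs on the left, and HS1 holds none of the 18 HBG pairs there but 18.2% on the right.

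The -3.5 kb site led the pairs of the HBD-3.5kb bait. Of its 947 leaving pairs 500 started in the 1-kb window of that site (52.8%, 49.6 to 56.0), which is 18.2% of the bait. The windows of the sites 2.5 kb and 1 kb upstream of HBD held 97 (10.2%) and 68 (7.18%). The share at the -3.5 kb site was 44.6% for pairs to HBB, 49.4% to HBG, 51.6% to the LCR and 63.0% beyond HS5. The study's methods name guides of this bait at the -3.5 kb and -1 kb sites among others, but none at 2.5 kb. Use and capture of a site can therefore not be told apart here.

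The other baits used the -3.5 kb site as well. It held 16 of the 40 HBB pairs to the region (40%, 26.3 to 55.4), 11 of the 28 HBG pairs (39.3%, 23.6 to 57.6) and 41 of the 95 LCR pairs (43.2%, 33.7 to 53.2). The guides of all baits were multiplexed, so these pairs may have been captured from either end. The -1 kb site held 8 of the HBB pairs, 13 of the LCR pairs and 0 of the HBG pairs, and the site at 2.5 kb held 6, 12 and 8. In the LCR list the -3.5 kb site was paired 12 times with HS1, 10 with HS2, 8 with HS3, 3 with HS4 and 3 with HS5. The HBD-3.5kb list gave the same counts but for HS5, with 6.

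HBB pairs reached farther than HBG pairs at the long end, and LCR pairs farther than HBD-3.5kb pairs. The distance between the ends of HBB pairs ran from 3.52 to 139 kb with a median of 22.0 kb, and of HBG pairs from 5.44 to 37.5 kb with a median of 17.2 kb. At least 50 kb was reached by 63 HBB pairs (36.8%, 30.0 to 44.3) and 0 HBG pairs (adjusted p = 3.20e-10, two-sided Fisher's exact test). At least 20 kb was reached by 88 HBB pairs (51.5%) and 20 HBG pairs (33.3%; adjusted p = 0.0266, two-sided Fisher's exact test). At 10 kb the order was the other way, 128 (74.9%) against 53 (88.3%; adjusted p = 0.0396, two-sided Fisher's exact test). With all pairs as denominator that difference turned, 74.9% against 61.6% (adjusted p = 0.0353, two-sided Fisher's exact test). Of the 4 distances 3 passed in this comparison (75%). The call at 10 kb was lost among pairs at least 5 kb long (adjusted p = 0.221), and that at 20 kb with pairs of any list (50.0% against 46.2%, adjusted p = 0.524, both by the two-sided Fisher's exact test). The LCR lies 47.1 to 65.4 kb from the middle of the HBB bait and is closer to HBG. By the bait edges no pair between HBG and the LCR can reach 50 kb. The contrast at that distance is thus partly set by where the baits lie.

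The HBD-3.5kb pairs ran from 0.305 to 1289 kb with a median of 32.0 kb, and the LCR pairs from 2.22 to 3673 kb with a median of 53.3 kb. At least 10 kb was reached by 691 HBD-3.5kb pairs (73.0%) and 837 LCR pairs (96.0%; adjusted p = 2.47e-44, two-sided Fisher's exact test). At least 50 kb was reached by 310 (32.7%) and 475 (54.5%; adjusted p = 2.96e-20, two-sided Fisher's exact test). At 100 kb the shares were 16.5% and 18.7% (adjusted p = 0.218, two-sided Fisher's exact test), and over all pairs 8.75% and 14.2% (adjusted p = 1.02e-05, two-sided Fisher's exact test). Here too 3 of 4 distances passed (75%), all higher for the LCR.

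The direction of the pairs followed from the targets above and from where each bait lies, and is no further difference. Of the HBB pairs 147 of 171 pointed to the HS5 side (86.0%, 80 to 90.4) and of the HBG pairs 18 of 60 (30.0%, 19.9 to 42.5; adjusted p = 1.89e-15, two-sided Fisher's exact test). All 18 of the latter ended in the LCR, and the LCR pairs on that side are those beyond HS5. Of the HBD-3.5kb pairs 605 of 947 (63.9%, 60.8 to 66.9) and of the LCR pairs 238 of 872 (27.3%, 24.4 to 30.3) did so (adjusted p = 5.46e-56, two-sided Fisher's exact test). For HBB the LCR held 55 pairs, and the interval at the same distance on the other side, chr11:5182927-5201227, held 0. For HBD-3.5kb the LCR held 128 and its mirror interval, chr11:5203151-5221451, held 24. The LCR carried capture guides of its own, and 48 of the 55 HBB pairs are also in the LCR list, so contact and capture cannot be told apart in this contrast.

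The density of pairs was lower at long than at short distances for every bait. Per kb of available sequence, HBD-3.5kb had 2.06% of its leaving pairs at 4 to 8 kb, 0.891% at 8 to 16, 0.482% at 16 to 32, 0.366% at 32 to 64 and 0.125% at 64 to 128 kb. It fell in each band. HBB had 1.83%, 1.68%, 0.402%, 0.530% and 0.0731% in the same bands, and the LCR 0.873%, 1.07%, 0.391%, 0.561% and 0.161%. Both rose again at 32 to 64 kb. That band holds much of the distance between the LCR and HBB. It also holds the distance from the middle of the HBD-3.5kb bait to the LCR. The LCR list had 313 pairs in this band, while its pairs at any distance were 58 to HBB and 95 to HBD-3.5kb. The HBD-3.5kb list, with 128 pairs to the LCR, did not rise there. Which targets made up the rise was not tested. HBG had 1.58%, 2.56%, 1.15% and 0.286% up to 64 kb and 0 pairs beyond. The slopes of log10 density on log10 distance were -1.10 for HBB, -0.94 for HBD-3.5kb and -0.58 for the LCR over 5 bands, and -0.86 for HBG over 4. The HBG slope leaves out 64 to 128 kb, where that list has 0 pairs, so it cannot be set against the others. They are descriptions, since bands are not replicates.

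**Figure D4:**
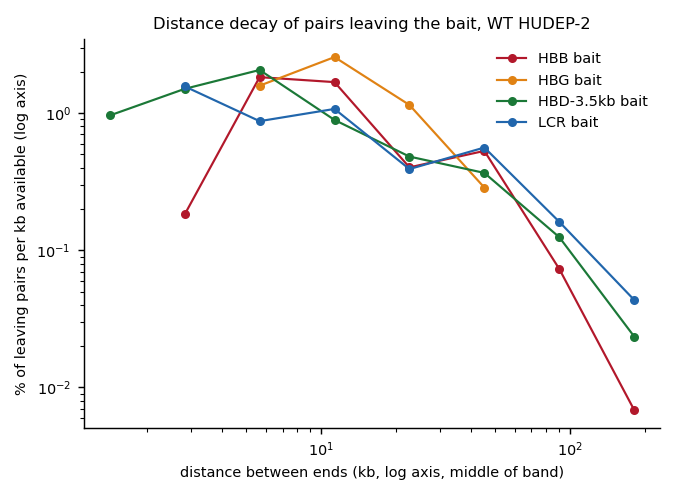
Percentage of leaving pairs per kb of available sequence (vertical log axis) against the distance between the ends in kb (horizontal log axis, bands that double from 1 kb), 1 line per bait, without bands that hold no pair. HBD-3.5kb falls from 2.06% at 4 to 8 kb in every later band, whereas HBB and the LCR rise from 0.402% to 0.530% and from 0.391% to 0.561% between 16 to 32 and 32 to 64 kb.

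Pairs between 2 baits could be counted from both sides, and the lists differed most for HBG. HBB and the LCR were joined by 55 pairs in the HBB list and 58 in the LCR list, with 48 in both (87.3% and 82.8% of each). HBB and HBD-3.5kb were joined by 40 and 56, with 40 in both (100% and 71.4%). HBD-3.5kb and the LCR were joined by 128 and 95, with 93 in both (72.7% and 97.9%). These lists held most of each other's pairs.

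The HBG list held a small part of what the other lists gave to HBG. HBG and the LCR were joined by 18 pairs in the HBG list and 55 in the LCR list, with 15 in both (83.3% and 27.3%). HBG and HBD-3.5kb were joined by 28 and 81, with 26 in both (92.9% and 32.1%). HBB and HBG were joined by 6 and 2, with 1 in both (16.7% and 50.0%). The HBG list also had the fewest pairs at the highest Bayes factor (BF) score of 150, 46 of 60 (76.7%, 64.6 to 85.6), against 98.2% for HBB, 83.6% for HBD-3.5kb and 84.5% for the LCR. The part of capture efficiency in these differences was not tested.

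**Figure D5:**
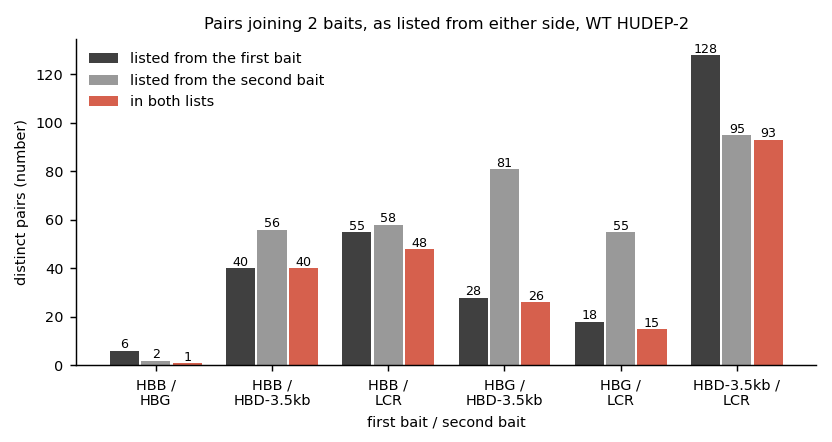
Number of distinct pairs (vertical axis) joining each of 6 combinations of 2 baits (horizontal axis), as listed from the first bait, from the second bait, and in both lists. HBG and the LCR are joined by 18 pairs in the HBG list and 55 in the LCR list, and HBB and the LCR by 55 and 58.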

How the data were processed

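CAPTURE-3C-seq was done by the authors on WT HUDEP-2 cells. Per the labels and methods, reads were aligned uniquely to hg19 (Bowtie2 2.2.8 and Picard are in the submitters' processing notes), 3 biological replicates were merged, and interactions with a sufficient BF score from the MAXIM software were deposited. The deposited positions start at base 1 and carry the BF score. The restriction enzyme is not given in the sources used here.

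The merged WT list was split into 4 lists where its sorted positions dropped. Mirrored lines were collapsed (6390 lines, 3195 pairs) and repeats removed (3 in HBD-3.5kb and 3 in LCR). An end belonged to a region by its midpoint. Genes were canonical GENCODE 44 transcripts on GRCh37. Shares had Wilson 95% intervals (scipy 1.17.1, Python 3.11.15) and entered Fisher's exact tests (two-sided), with p-values adjusted by Benjamini-Hochberg within each family and a threshold of 0.05. In all 133 tests were made. The scripts were tested on simulated data. Compared lists share pairs, so are not fully independent. Named regions were the baits, sites, segment genes, 3 leading bins and leading ends per bait, and up to 3 bins per direction. The latter had the smallest adjusted p, and ties were kept. The leading end inside HBD-3.5kb is not reported here. Members and lists were chosen with earlier results of these data known. The single replicates and the knockout list were not used here.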

Additional observations from a re-analysis of the deposited data

How the results depend on the processing

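Positions of sites were read by eye, the library is single, and the HBG list holds only 60 leaving pairs, so its intervals are wide. No paired analysis was possible because the list used here merges the replicates and its pairs carry no replicate number; the single replicates were not used here. The cause of each change was not tested. The difference in leaving share between HBD-3.5kb and LCR turned from -22.7 percentage points to 11.6 with ends at least 1 kb apart. It was 12.8 at 5 kb and 8.12 over pairs of 500-bp bins. HBB minus HBG fell to 1.64 at 5 kb. At 5 kb the HBB share is fixed by its bait length of 3.7 kb, and that of HBD-3.5kb (5.5 kb) nearly so. The LCR share, HBB minus HBG, turned to -3.42 with pairs of any list (which adds only pairs between baits, and so lowers every share outside them) and -1.86 with 500-bp bins.
The number of segments passing became 2 in each comparison with 500-bp bins and 8 for HBD-3.5kb against LCR with all pairs as denominator. Hypersensitive site tests passing became 3 with leaving pairs as denominator, and distances passing for HBB against HBG 1 with 500-bp bins. For 2-kb bins the numbers became 1 (HBB against HBG, highest BF score), 0 (HBB against HBG, all pairs) and 0 (HBD-3.5kb against LCR, 500-bp bins, two-sided Fisher's exact test).

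Other differences changed sign, first minus second bait in percentage points, and of these only the reach of 10 kb passed the test on both sides (HBB minus HBG 13.2 with all pairs). HBD-3.5kb minus LCR was 1.76 in the HBE1 segment (ends at least 5 kb apart), 0.0658 there (any list), 0.767 beyond 3'HS1 and 0.111 at 100 kb (500-bp bins), and -0.237 at HBG (all pairs). For site use, HBB minus HBG was -4.93 at HS1, 9.47 at HS2 and -5.81 at HS3 (any list), -4.76 at HS3 (500-bp bins), 21.8 at HS2 and -7.12 at HS3 (highest BF score), 3.23 at HS2 and -0.20 at HS5 (3-kb windows) and 0.351 at HS2 (leaving pairs). HBG minus HBD-3.5kb was 2.63 at HS1 and -1.78 at HS2 (any list), -11.0 at HS2 (highest BF score), 1.74 at HS5 (3-kb windows) and 0.40 at HS5 (leaving pairs). HBB minus HBD-3.5kb was 0.853 at HS1 and -0.640 at HS4 (500-bp bins), -0.298 at HS4 (overlap by 1 base), 1.28 at HS1 and -2.63 at HS4 (1-kb windows), -2.64 at HS4 (3-kb windows) and 1.5 at HS1 (leaving pairs). Of the other single differences 333 kept direction and side of the threshold, 14 were lost and 10 gained.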
